A study of Homo sapiens with 8 samples.

Results

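Interferon-stimulated genes are the set of antiviral and regulatory genes that cells switch on after interferon binds its receptor. A list of 47 such genes was looked up by symbol in the deposited expression table of MonoMac 6 cells, and 34 of the 47 had a row among the 11530 genes of the table. The 8 libraries came from MonoMac 6, an established human line derived from an acute monocytic leukaemia and propagated with 10% serum and antibiotics in the medium. In the APRIL group (4 libraries), cells received human APRIL at 100 ng/mL for 24 h, and the treatment text describes that medium as RPMI free of serum. In the Control group (4 libraries), no APRIL was added. Per the series text, medium with baseline cytokines, which it does not name, was used for both groups. The serum content of the Control medium is not given in the sources used here, so APRIL and a difference in serum cannot be told apart in any result below. The sources do not say whether the libraries of a group came from separate cultures, so each p-value reflects variation among the libraries, part or all of which may be technical.

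APRIL, the product of TNFSF13, belongs to the TNF family of ligands and acts through BCMA, TACI and heparan sulfate chains. It is not an interferon, and the interferon pathway is a separate one. Type I interferons bind the receptor IFNAR1 and IFNAR2, whose kinases JAK1 and TYK2 phosphorylate STAT proteins. The complex ISGF3, which holds STAT2 and IRF9, then binds the interferon-stimulated response element in the promoters of the target genes. The targets sense or degrade viral RNA, block viral entry and release, attach the ubiquitin-like protein ISG15 to other proteins, and feed back on the pathway itself. Monocytes express many of them at a basal level and raise them strongly when interferon is present. In the bulk libraries, fewer cells expressing a gene and less RNA per cell cannot be told apart.

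Promoter stretches are given first, since the response element is the shared feature by which such genes are known. The core of the element (the letters GAAA, any 2 bases, and GAAA again; on the other strand TTTC, any 2 bases, and TTTC) was searched on both strands of the 250 bases before each start in the RefSeq promoter table (GRCh38.p14). Of the 47 genes, 38 had a promoter in that table, and 23 of these held the core in any of their listed promoters. Counted by promoter and not by gene, 1061 of all 35116 promoters of the table (3.02%) held it. Stretches around the cores of 9 genes are given 5′ to 3′ along the gene, with each core in capitals on whichever strand it was read.
IFI6: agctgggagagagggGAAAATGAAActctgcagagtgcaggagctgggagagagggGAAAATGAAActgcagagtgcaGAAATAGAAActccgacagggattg
ISG15: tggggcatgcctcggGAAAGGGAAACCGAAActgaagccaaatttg
BST2: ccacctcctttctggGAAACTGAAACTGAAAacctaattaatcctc
IFITM3: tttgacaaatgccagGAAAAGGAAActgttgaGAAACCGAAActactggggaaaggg
OAS3: cggagagccgggcggGAAAACGAAAcc
DDX60: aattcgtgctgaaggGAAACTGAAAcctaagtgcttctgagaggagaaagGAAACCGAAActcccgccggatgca
PARP9: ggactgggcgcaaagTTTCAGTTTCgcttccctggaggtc
PARP14: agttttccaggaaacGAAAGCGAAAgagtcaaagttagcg
SAMD9: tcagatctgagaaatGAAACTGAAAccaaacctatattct
The stretches lie at chr1:27672261-27672363 on the minus strand for IFI6, chr1:1013369-1013414 on the plus strand for ISG15, chr19:17405730-17405775 on the minus strand for BST2 and chr11:320871-320927 on the minus strand for IFITM3. Those of OAS3 and PARP14 lie at chr12:112938447-112938473 and chr3:122680795-122680834, both on the plus strand. Those of DDX60, PARP9 and SAMD9 lie at chr4:168318781-168318855, chr3:122564317-122564356 and chr7:93118091-93118130, all on the minus strand. IFI6 carried 3 cores, the first beginning 156 bases before its start. In ISG15 and BST2, 2 cores overlapped each other and so were not separate matches. Of the 2 cores of OAS3 the one nearer the start is shown, and of the 2 promoters listed for PARP9 the one that held a core. A match is a description of the letters and not a binding site, and no match says only that these letters are not in this window.

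Values are the deposited log2 values, and a difference is the APRIL mean minus the Control mean on that scale, tested with limma over all genes of the table. Each gene carries its own divisor in the deposited values, so values are read between libraries of 1 gene and not between genes. Over the genes whose whole reads could be recovered, depth was 929941 to 5320111 reads in APRIL libraries and 1376030 to 2954598 reads in Control libraries. The shallowest library was the third APRIL column of the table, called APRIL column 3 below, with a median of 40 reads per gene. The columns carry no replicate number, and their order carries no other meaning. Of 10 markers of a monocytic line, 8 had a row (CD14, LYZ, CD33, ITGAM, CSF1R, FCGR1A, S100A8 and S100A9). Their summed linear level ranged from 968 to 1812 in APRIL libraries and from 1035 to 1218 in Control libraries, a sum in which each gene keeps its own divisor. S100A9 alone of the 8 lay wholly above Control, as did 3.62% of all genes tested. It stood at 7.89 ± 1.02 in APRIL and 7.14 ± 0.14 in Control (SD, n = 4 each). Its log2 values were 7.47, 7.273, 9.42 and 7.40 in APRIL columns 1 to 4, and 7.266 in the highest Control library. APRIL column 3 thus stood apart, and the S100A9 difference was 0.75 ± 0.41 (SE, limma unadjusted p = 0.0974). Of 6 markers of plasmacytoid dendritic cells, the main source of type I interferon in blood, TCF4 and TCL1A had a row, with a summed level of 47.7 to 62.2 in APRIL and 57.7 to 81.5 in Control. Those genes went opposite ways, with a difference of -0.29 ± 0.17 for TCF4 and 0.53 ± 0.23 for TCL1A (limma unadjusted p = 0.0473). Of T and NK cell markers, 1 of 7 had a row, NKG7, which differed by 0.46 ± 0.25. NKG7 was at 12.19 in APRIL column 3, against 10.86 to 11.20 in the other APRIL libraries. Of 4 B cell markers, CD79A, CD79B and PAX5 had a row, with a summed level of 28.7 to 36.1 in APRIL and 29.1 to 37.1 in Control, and CD79A lay wholly above Control at a difference of 0.26 ± 0.17. No marker of erythroid (5 listed) or of fibroblast, epithelial and endothelial cells (6 listed) had a row. The part of these levels in the results was not tested.

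The interferon-stimulated genes stood on both sides between APRIL and Control cells, with IFI6, IRF7 and ISG15 higher and SP110, DDX60, XAF1 and PARP9 lower before adjustment and none passing after it. Of the 34 genes with a row, 33 passed the floor on deposited log2 values, which is not a floor on reads, and were tested. With APRIL, 13 of them (39.4%) stood higher and 20 lower, where 49.3% of all genes tested stood higher. No gene of the list passed limma's adjusted threshold of 0.05, and 0 of 11257 genes (0%) did over the whole table, with an adjusted p of 0.3999 at the least. At an unadjusted p under 0.05 stood 7 of the 33 (21.2%), against 11.9% of all genes tested. The members were chosen with earlier results of these data known, so such shares describe the list and do not test it. IFI6, IRF7 and ISG15 were the 3 on the higher side, where 6.25% of all genes stood, and SP110, DDX60, XAF1 and PARP9 the 4 on the lower side, where 5.69% stood. The median difference of the 33 was -0.14, against -0.0053 over all genes tested. By size without sign the median was 0.31 for the 33 and 0.22 for all genes.

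The groups did not overlap for 4 of the 33 genes. IFI6 lay wholly above Control, as did 3.62% of all genes, and SP110, DDX60 and PARP9 lay wholly below, as did 4.19% of all genes. The 95% interval of a difference reached 0.47 to either side at the median gene of the list. A smaller shift of a typical member could thus not be told from 0 even before adjustment. After adjustment larger differences, up to 1.21 for ISG15, did not pass either. In the authors' deposited table, 5 of the 34 members had a p-value under 0.05, as had 8.52% of the 11526 genes with one: IRF7, DDX60, XAF1, PARP9 and SP110. IFI6 had a deposited p-value of 0.0513 there, beside a deposited fold of 2.13 for APRIL over Control.

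**Figure D1:**
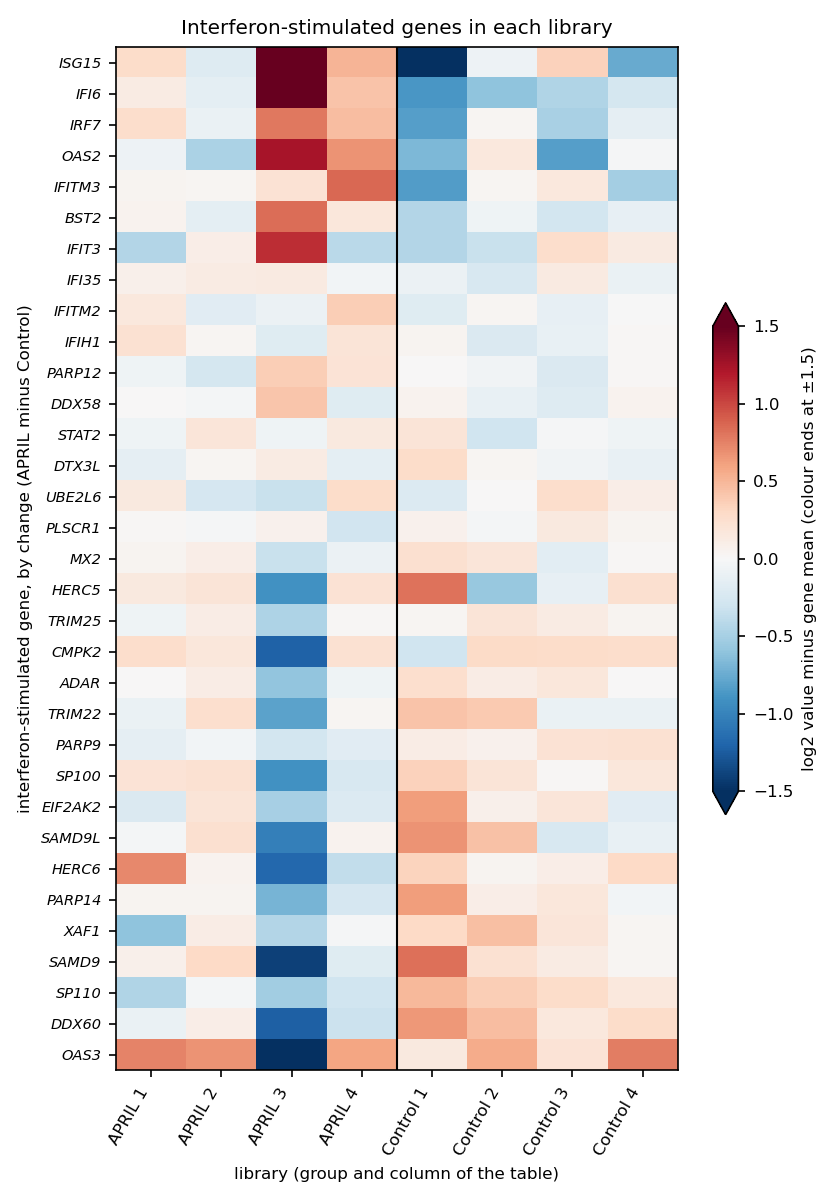
Deposited log2 value of each tested interferon-stimulated gene minus its mean over the 8 libraries, with the 4 APRIL libraries left of the 4 Control libraries and genes ordered by the difference between groups. The strongest colours of most rows stand in APRIL column 3, which held the highest or lowest value of 25 of the 33 genes.

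APRIL column 3 stood at an end of the range for 25 of the 33 genes (75.8%), the highest library for 8 and the lowest for 17. Over all genes tested it was the highest library for 33.6% and the lowest for 32.9%. Averaged over the 33 genes, the deviation from the gene mean was 0.04, 0.05, -0.24 and 0.06 in the APRIL columns and, over the Control columns, 0.02, 0.06, 0.005 and 0.01. Without APRIL column 3, 15 genes stood higher and 18 lower, and the median difference was -0.05. The 6 members that turned direction were IFIT3, OAS3, DDX58, HERC5, CMPK2 and UBE2L6.

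Among the transcription factors of the pathway, IRF7 stood higher with APRIL and STAT2 near 0. IRF7, a factor that is itself induced by interferon and drives further interferon transcription, had log2 values of 1.35, 0.99, 1.87 and 1.55 in APRIL columns 1 to 4 and, in the Control columns, 0.25, 1.11, 0.60 and 0.95. APRIL column 3 was the highest of these, and APRIL column 2 lay below Control column 2, so the groups overlapped. The difference was 0.71 ± 0.26 (SE, 4 libraries per group; limma unadjusted p = 0.0207, adjusted p = 0.3999). The reads behind it numbered 57, 84, 24 and 73 in APRIL libraries and 19, 23, 22 and 45 in Control libraries. After removal of the trend that each library showed with transcript length and GC content, the IRF7 difference was 0.26.

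STAT2, which brings an activation domain to ISGF3, had log2 values of 3.27, 3.52, 3.27 and 3.48 in APRIL libraries and 3.53, 3.05, 3.32 and 3.28 in Control libraries. The groups lay over each other, with a difference of 0.10 ± 0.16 (limma unadjusted p = 0.555). IRF9, which gives ISGF3 its DNA binding, was not analysed here.

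The sensors of viral RNA stood on both sides. DDX60, a helicase that assists the RIG-I-like receptors, had log2 values of 1.42, 1.61, 0.29 and 1.19 in APRIL libraries and 2.17, 1.98, 1.68 and 1.78 in Control libraries. All APRIL libraries lay below all Control libraries, APRIL column 3 the lowest with 7 reads. The DDX60 difference was -0.78 ± 0.28 (limma unadjusted p = 0.021, adjusted p = 0.3999), -0.50 without APRIL column 3 and -0.52 with the length and GC trends removed. DDX58, which encodes the sensor RIG-I, and IFIH1, which encodes the sensor MDA5, differed by 0.10 ± 0.16 and 0.13 ± 0.19. The direction of DDX58 turned without APRIL column 3, at -0.02.

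EIF2AK2 encodes PKR, the kinase that halts translation when it binds double-stranded RNA. Its log2 values were 1.82, 2.23, 1.53 and 1.83 in APRIL libraries and 2.66, 2.11, 2.21 and 1.86 in Control libraries. The groups overlapped, with a difference of -0.36 ± 0.22 (limma unadjusted p = 0.136) that was -0.03 with the length and GC trends removed. ADAR, which edits adenosines in double-stranded RNA, had log2 values of 6.64, 6.74, 6.04 and 6.56 in APRIL libraries and 6.89, 6.75, 6.80 and 6.64 in Control libraries. APRIL column 3 lay apart below the rest, and the ADAR difference was -0.27 ± 0.16 (limma unadjusted p = 0.126). It was -0.12 without that library and -0.09 with the length and GC trends removed.

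Of the classical antiviral effectors, few were in the table. The IFIT family, which binds viral RNA by its 5′ end, was represented by IFIT3 alone of 4, with a difference of 0.18 ± 0.33. Its direction turned without APRIL column 3, at -0.16, and with library quality weights, at -0.37. IFIT1, IFIT2, IFIT5, OAS1, OASL, RSAD2, ISG20, IFI27, IFI44, IFI44L, IFITM1, IRF9 and USP18, 13 in all, had no row and were not analysed here. The GTPase MX1, which blocks the replication of influenza and other viruses, had a row but was not tested. A log2 value of at least 0 in at least 4 libraries was required, on a scale with its own divisor for each gene. By reads MX1, at 9 to 62, was not below every tested member, with OAS2 at 4 to 21. The log2 values of MX1 were -0.16, 0.22, 0.45 and -0.85 in APRIL libraries and -0.32, -0.53, -0.36 and -0.16 in Control libraries, over which the groups overlapped. Without the filter the MX1 difference was 0.26. Its relative MX2 differed by -0.14 ± 0.17, and by -0.05 without APRIL column 3.

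The 2-5A synthetases OAS2 and OAS3, which make the messenger that activates RNase L, rested on few reads. OAS2 had log2 values of 2.83, 2.44, 4.15 and 3.58 in APRIL libraries and 2.23, 3.06, 2.09 and 2.89 in Control libraries, and the groups overlapped. With 8 to 21 reads in APRIL libraries and 4 to 12 in Control libraries, its difference was 0.68 ± 0.37 (limma unadjusted p = 0.0967). It was 0.38 without APRIL column 3 and 0.25 with quality weights. OAS3 had log2 values of 4.60, 4.53, 0.16 and 4.45 in APRIL libraries and 4.0, 4.42, 4.06 and 4.62 in Control libraries. APRIL column 3 alone stood apart, and there OAS3 had 0 reads.

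At the share of reads that OAS3 took in the other 7 libraries, 10.6 reads would stand in APRIL column 3. A count of 0 allows up to 3 reads, at which the OAS3 value there would be 2.97, so the deposited value is set by the count added before the logarithm. The OAS3 difference was -0.84 ± 0.86 (limma unadjusted p = 0.35) and 0.25 without APRIL column 3, the direction turned.

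Membrane factors that hold back virus entry and release stood higher with APRIL in 3 of 4 genes. BST2, or tetherin, which ties budding virus to the cell, had log2 values of 4.49, 4.30, 5.28 and 4.61 in APRIL libraries and 4.0, 4.38, 4.16 and 4.32 in Control libraries. APRIL column 2 lay within the Control range and APRIL column 3 highest, and the difference was 0.45 ± 0.21 (limma unadjusted p = 0.0569). It was 0.25 without APRIL column 3 and 0.07 with the length and GC trends removed. IFITM3, which blocks fusion of virus in endosomes, had log2 values of 1.88, 1.87, 2.05 and 2.70 in APRIL libraries and 0.99, 1.87, 2.0 and 1.33 in Control libraries. APRIL column 4 was the highest here and the groups overlapped, and the difference was 0.58 ± 0.28 (limma unadjusted p = 0.0632), or 0.18 with the trends removed.

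IFITM2, a close relative of IFITM3, had log2 values of 2.83, 2.51, 2.60 and 3.05 in APRIL libraries and 2.50, 2.71, 2.56 and 2.67 in Control libraries, with a difference of 0.14 ± 0.17. The groups overlapped, and with the trends removed the direction turned, at -0.22. Both IFITM genes share near-identical sequence, so reads could have been split between them and both values are uncertain. PLSCR1, a scramblase of membrane lipids, differed by -0.11 ± 0.13.

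In the ISG15 system, the modifier itself stood higher with APRIL, and the differences of the 4 other tested genes, below 0, were smaller or turned direction without APRIL column 3. ISG15 had log2 values of 0.60, 0.13, 2.15 and 0.84 in APRIL libraries and -1.61, 0.25, 0.68 and -0.42 in Control libraries. The groups overlapped, with APRIL column 3 highest and Control column 1 lowest. The reads numbered 22, 30, 19 and 29 in APRIL libraries and 3, 8, 15 and 11 in Control libraries. The difference of 1.21 ± 0.54 (limma unadjusted p = 0.0486, adjusted p = 0.3999) was 0.80 without APRIL column 3 and 0.67 with the length and GC trends removed. UBE2L6, the conjugating enzyme, differed by -0.08 ± 0.18, and the ligases HERC5 and TRIM25 by -0.18 ± 0.33 and -0.19 ± 0.15. HERC6, a relative of HERC5, differed by -0.39 ± 0.36. Once APRIL column 3 was left out, UBE2L6 and HERC5 turned direction, at 0.02 and 0.09, TRIM25 stood at -0.07 and HERC6 at -0.06. With quality weights HERC5 and HERC6 turned direction too, at 0.15 and 0.24.

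Of the ADP-ribosylation group, PARP9 and PARP14 stood lower. PARP9, which works as a pair with the ubiquitin ligase DTX3L, had log2 values of 4.76, 4.86, 4.62 and 4.72 in APRIL libraries and 5.0, 4.96, 5.11 and 5.13 in Control libraries. All APRIL libraries lay below all Control libraries. The difference was -0.31 ± 0.12 (limma unadjusted p = 0.0276, adjusted p = 0.3999), -0.27 without APRIL column 3 and -0.07 with the length and GC trends removed. PARP14, a mono-ADP-ribosyltransferase, had log2 values of 5.32, 5.32, 4.57 and 5.03 in APRIL libraries and 5.90, 5.38, 5.45 and 5.24 in Control libraries. They overlapped, with a difference of -0.43 ± 0.21 (limma unadjusted p = 0.0638). It was -0.27 without APRIL column 3, -0.15 with the trends removed and -0.10 with quality weights.

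DTX3L itself differed by -0.07 ± 0.14, and with the trends removed its direction turned, at 0.15. PARP9 and DTX3L are neighbours read in opposite directions, and the kit does not mark the strand, so reads where they overlap cannot be told apart. PARP12, a zinc finger mono-ADP-ribosyltransferase, differed by 0.12 ± 0.16, and by 0.02 without APRIL column 3.

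All 3 tested genes of nuclear bodies and the TRIM family stood lower with APRIL. SP110, a nuclear body protein related to SP100, had log2 values of 1.44, 1.86, 1.38 and 1.60 in APRIL libraries and 2.38, 2.26, 2.18 and 2.06 in Control libraries. Every APRIL library lay below every Control library, on reads of 33, 84, 9 and 41 reads in APRIL libraries and 46, 28, 36 and 53 in Control libraries. The difference was -0.65 ± 0.18, with a 95% interval of -1.04 to -0.26 (limma unadjusted p = 0.00397, adjusted p = 0.3999). SP110 had the smallest unadjusted p of the 33 genes. Over all 17 fits, which share the same libraries, its difference stayed between -0.75 and -0.53, with an adjusted p of 0.129 to 0.654. SP100 differed by -0.36 ± 0.25 and TRIM22, a ubiquitin ligase that restricts several viruses, by -0.31 ± 0.27. Leaving out APRIL column 3 gave -0.11 for SP100 and -0.10 for TRIM22, beside -0.58 for SP110.

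The SAMD9 pair, whose products restrict poxvirus replication, also stood lower. SAMD9 had log2 values of 6.87, 7.08, 5.39 and 6.61 in APRIL libraries and 7.61, 7.02, 6.91 and 6.82 in Control libraries. APRIL column 3 was far below the rest, and the difference of -0.60 ± 0.34 (limma unadjusted p = 0.105) was -0.24 without it. SAMD9L differed by -0.38 ± 0.30. CMPK2, a mitochondrial nucleotide kinase, differed by -0.27 ± 0.32. Without APRIL column 3, which held 7 reads of SAMD9L and 2 of CMPK2, SAMD9L stood at -0.10 and CMPK2 turned direction, at 0.09.

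IFI6, a small mitochondrial and endoplasmic reticulum protein that holds back apoptosis, was the member with the smallest unadjusted p on the higher side. Its log2 values were 6.45, 6.19, 8.13 and 6.76 in APRIL libraries and 5.46, 5.73, 5.88 and 6.08 in Control libraries. All APRIL libraries lay above all Control libraries, and APRIL column 3 stood highest of the 8. The reads numbered 152, 239, 144 and 209 in APRIL libraries and 55, 44, 67 and 122 in Control libraries. The difference was 1.09 ± 0.36 (95% interval 0.29 to 1.90; limma unadjusted p = 0.013, adjusted p = 0.3999). It was 0.68 without APRIL column 3 and 0.71 with the length and GC trends removed. The unadjusted p of IFI6 was under 0.05 in all 17 fits, as was that of SP110. The fits share the same 8 libraries, and both genes were named for their small p, so this is not separate support.

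XAF1, which opposes the apoptosis inhibitor XIAP, lay on the other side. Its log2 values were 4.02, 4.73, 4.19 and 4.60 in APRIL libraries and 4.92, 5.07, 4.81 and 4.66 in Control libraries. APRIL column 2 lay above Control column 4, so the groups overlapped. The reads numbered 22, 69, 7 and 37 in APRIL libraries and 30, 22, 25 and 36 in Control libraries. The XAF1 difference was -0.48 ± 0.18 (limma unadjusted p = 0.0263, adjusted p = 0.3999). IFI35, a leucine zipper protein of the interferon response, had log2 values of 4.78, 4.83, 4.83 and 4.65 in APRIL libraries and 4.61, 4.46, 4.84 and 4.60 in Control libraries. The groups overlapped, and the IFI35 difference of 0.15 ± 0.13 was -0.24 once the length and GC trends were removed, the direction turned.

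**Figure D2:**
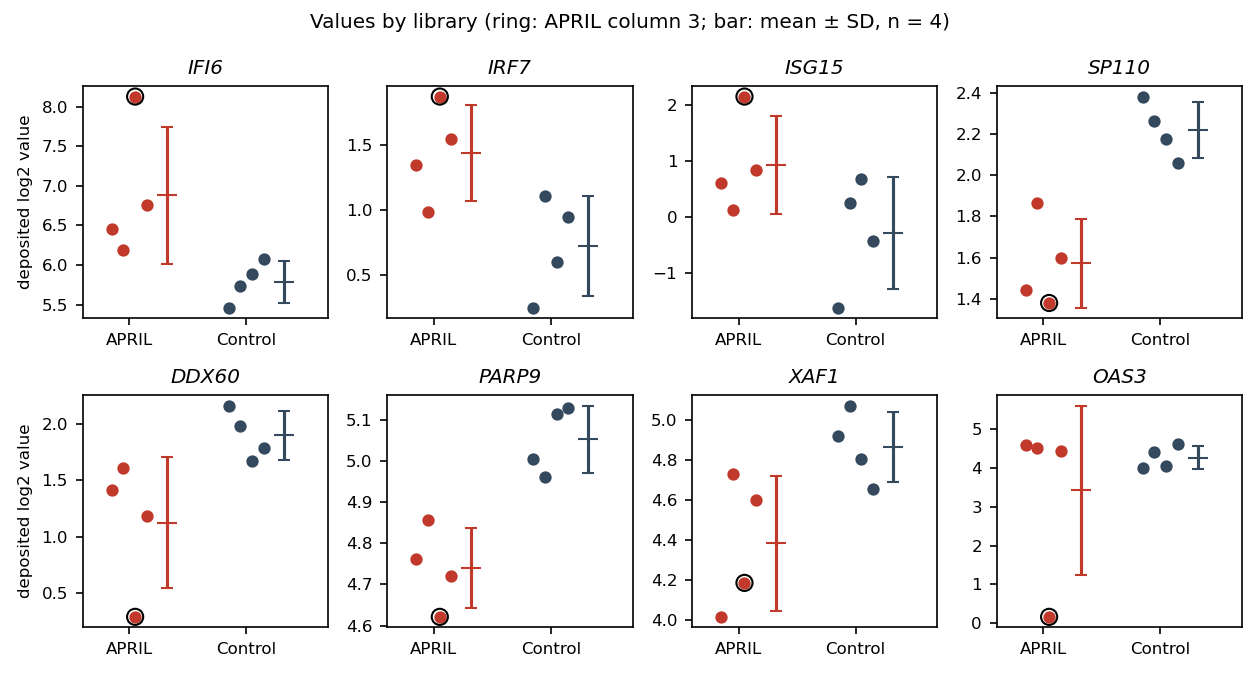
Deposited log2 values of 8 interferon-stimulated genes in the 4 APRIL libraries (left) and 4 Control libraries (right), with the mean ± SD beside them and APRIL column 3 ringed. IFI6 lies wholly above Control and SP110, DDX60 and PARP9 wholly below, and the ringed library, with 0 reads of OAS3, stands apart from the other 7 there.

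**Figure D3:**
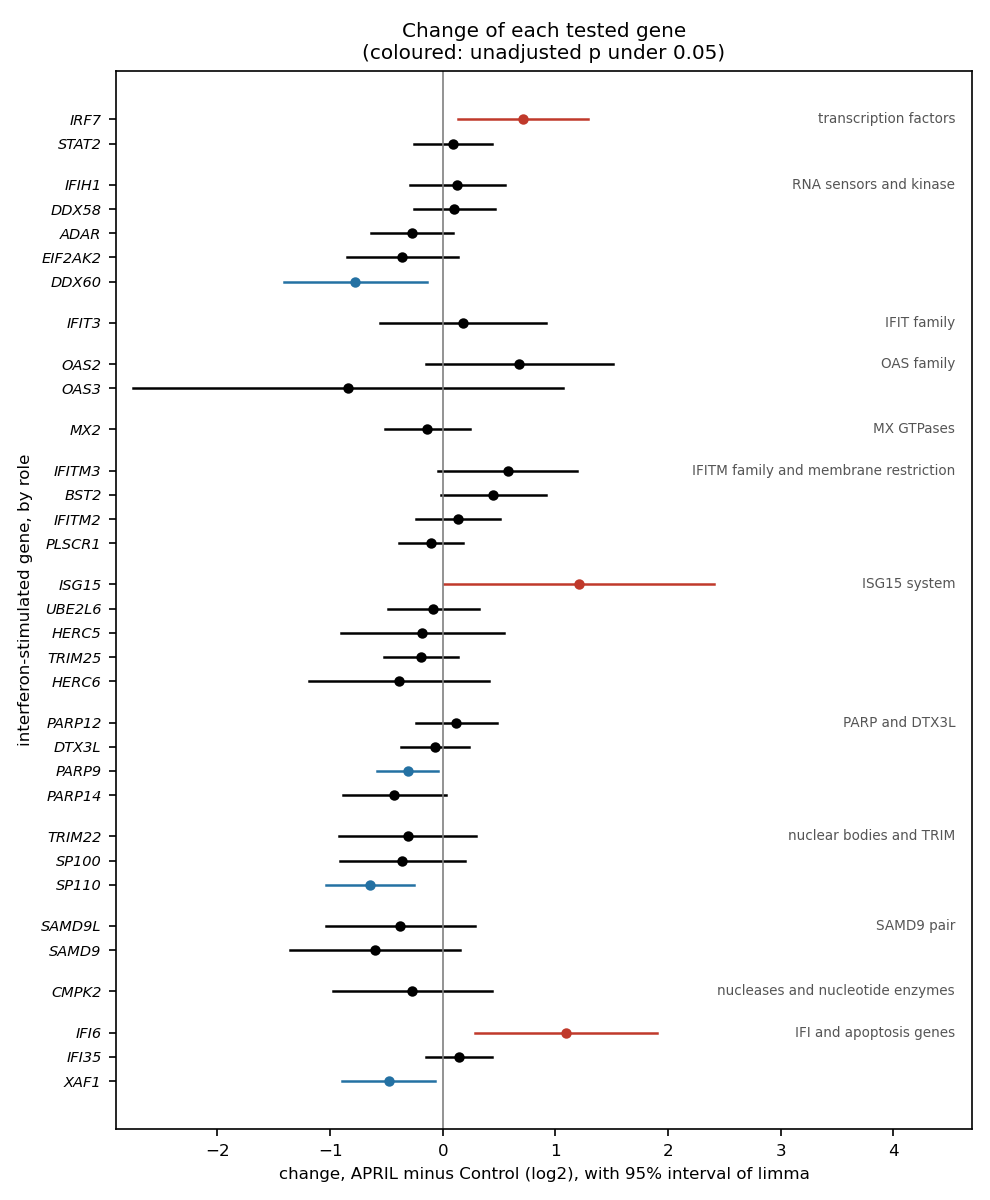
Difference of each tested gene, APRIL minus Control on the log2 scale, with its 95% interval from limma, grouped by role. The transcription factors, membrane factors, IFI6 and ISG15 lie mostly right of 0 and the nuclear body, SAMD9 and PARP genes mostly left, with the interval clear of 0 for 7 genes, coloured, before adjustment.

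The directions within the list went with transcript length. Of the 8 members whose longest annotated transcript is under 2100 bases, 7 stood higher with APRIL, among them IFI6, ISG15, BST2 and IFITM3, with a median difference of 0.51. Over all 2108 tested genes of that length the median was 0.27 and 81.0% stood higher. All 10 members of 5000 bases or more stood lower, among them SAMD9, PARP14, PARP9, DDX60 and EIF2AK2, with a median of -0.37. Over all 3021 tested genes of that length the median was -0.20 and 22.0% stood higher. The 15 members between these lengths split into 6 higher and 9 lower, with a median of -0.14. Median GC content was 57.3% in the short members, 44.1% in the middle ones and 42.9% in the long ones. Length and GC content thus ran together in the list. The cut-offs in length were chosen after the values were seen.

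Across the 33 genes, Spearman's rho of the difference was -0.667 with transcript length and 0.651 with GC content. Across all 10363 tested genes with a length it was -0.535 and 0.507. The genes share the same 8 libraries and are not independent replicates, so these are descriptions. Without APRIL column 3 the rho over the 33 genes was -0.573 with length and 0.737 with GC content. After removal of each library's length and GC trends, 5 of the 8 short members stood higher and 9 of the 10 long ones lower. The median was 0.12 in the short members and -0.09 in the long ones. Of the 33 genes 12 stood higher and 21 lower, and 30 kept their direction. In that fit IFI6, DDX60 and SP110, of the 33 members, stood at an unadjusted p under 0.05, beside 8.07% of all its genes. Over all fits in which a member was tested, the unadjusted p was under 0.05 in 12 of 16 for IRF7, 14 of 16 for DDX60, 6 of 16 for ISG15, and 11 of 17 for both XAF1 and PARP9. What underlies the trends was not tested.

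**Figure D4:**
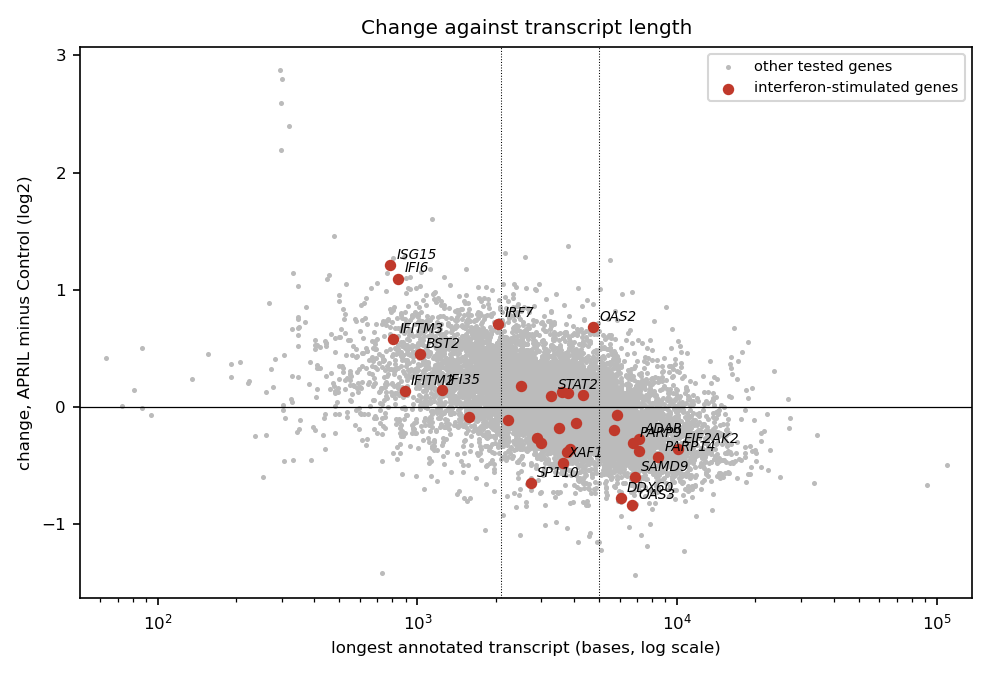
Difference of every tested gene, APRIL minus Control on the log2 scale, against the length of its longest annotated transcript (log scale), with the interferon-stimulated genes in colour and the named ones labelled. Dotted lines mark 2100 and 5000 bases. Of the short members 7 of 8 lie above 0 and all 10 long members below it, as do most other genes of those lengths.

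**Figure D5:**
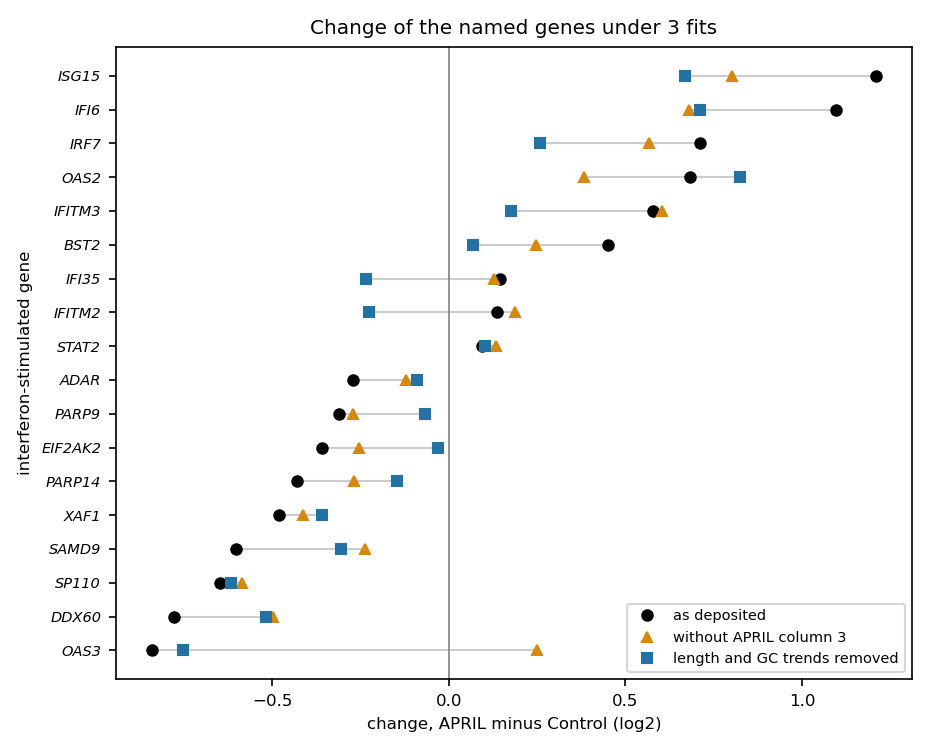
Difference of the 18 named members, APRIL minus Control on the log2 scale, as deposited (circles), without APRIL column 3 (triangles) and with the length and GC trends removed (squares). SP110 stays near -0.6 in all of them, IFI6 lies between 0.68 and 1.09, and OAS3 crosses 0 without APRIL column 3.

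The core of the response element was found in any listed promoter of 14 of the 27 tested members with a RefSeq promoter. Of these 14, 7 stood higher and 7 lower, with a median difference of 0.0064. Of the 13 without the core, 2 stood higher and 11 lower, with a median of -0.27. These counts and medians are of the deposited values. Without APRIL column 3, UBE2L6 and CMPK2 of the 13 turned higher. Of the 14, OAS3 and HERC5 turned higher and IFIT3 lower. Of the 9 genes whose cores are printed, IFI6, ISG15, BST2 and IFITM3 stood higher and DDX60, PARP9, PARP14, SAMD9 and OAS3 lower, the last with its direction turned without APRIL column 3. SP110 and XAF1 held no match in the 250 bases.

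The genes around the list, among them receptors, other interferon regulatory factors and negative regulators, stood on both sides, and none passed limma's adjusted threshold. Of 13 interferon receptors and proximal signalling genes, all tested, 4 stood higher and 9 lower, with a median of -0.12. IFNGR2, the signalling chain of the receptor for interferon gamma, was the only one with an unadjusted p under 0.05, at 0.33 ± 0.13 (limma unadjusted p = 0.0295). No gene of the 10 listed interferon genes had a row, and they were not analysed here. Of 8 tested interferon regulatory factors and their binding partners outside the list, 6 stood higher and 2 lower, with a median of 0.21. IRF1, a factor induced by interferon gamma, differed by 0.42 ± 0.17 (limma unadjusted p = 0.0351), and IRF2BP1, a corepressor that binds IRF2, by 0.54 ± 0.23 (limma unadjusted p = 0.0404). With the length and GC trends removed, IFNGR2 stood at 0.15, IRF1 at 0.50 and IRF2BP1 at 0.11. The median of these factors was 0.06 without APRIL column 3 and Control column 1.

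Of 15 tested nucleic acid sensors and adaptors outside the list, 11 stood higher and 4 lower, with TRAF6, a ubiquitin ligase downstream of Toll-like receptors, at 0.35 ± 0.14 (limma unadjusted p = 0.0368). Of 14 negative regulators, 8 stood higher and 6 lower. The exonuclease TREX1, which clears DNA from the cytosol, stood at 0.53 ± 0.22, PIAS2, a SUMO ligase that binds STAT proteins, at -0.53 ± 0.18, and PTPN11, the phosphatase SHP2, at -0.49 ± 0.18. With the length and GC trends removed, TRAF6 stood at 0.53, TREX1 at 0.09, PIAS2 at -0.19 and PTPN11 at -0.25. Of 15 tested genes driven by interferon gamma through its own promoter element, 11 stood higher and 4 lower, with a median of 0.27, which was 0.17 without APRIL column 3 and 0.12 with quality weights. FCGR1B, an Fc receptor gene, differed by 0.84 ± 0.30 (limma unadjusted p = 0.0181), and as a near-identical copy of FCGR1A it is uncertain.

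Of 50 other interferon-stimulated genes, 38 were tested, of which 21 stood higher and 17 lower, with a median of 0.03. RBCK1, a subunit of the linear ubiquitin ligase, differed by 0.50 ± 0.16 (limma unadjusted p = 0.0113), and CNP, a phosphodiesterase, by 0.36 ± 0.12 (limma unadjusted p = 0.0148). ZC3HAV1, the antiviral protein ZAP, which binds CpG-rich viral RNA, differed by -0.33 ± 0.13 (limma unadjusted p = 0.0322). After removal of the trends RBCK1 stood at 0.18, CNP at 0.40 and ZC3HAV1 at -0.09. Over all 103 tested genes of these lists, 8 stood at an unadjusted p under 0.05 on the higher side and 3 on the lower, beside 6.25% and 5.69% of all genes tested.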

How the data were processed

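RNA of 8 MonoMac 6 libraries was taken with a small-column kit and made into TruSeq RNA v2 libraries, which select polyadenylated RNA and do not mark the strand, per the labels' protocols. Per the submitters' processing notes, bcl2fastq and TopHat2 2.0.13 were used with genome build hg19. No source used here names the read counter or the annotation. Per the file headers, the authors deposited a TMM-scaled value per library, which the values show to be log2, with, per gene, a p-value and the fold of APRIL over Control on a linear scale.

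limma 3.58.1 (R 4.3.3), with robust empirical Bayes and a trend on intensity, was run two-sided on the deposited log2 values with the group as the only term. Genes with a log2 value of at least 0 in at least 4 libraries were tested (11257), with Benjamini-Hochberg adjustment over all of them and a threshold of 0.05. Whole reads were recovered from the values for 11160 of 11530 genes (96.8%), and for 0 of 500 genes with the library constants moved; they serve depth, floors and 1 alternative. Floors of 0 to 3 reads cover counting error only, and the 95% intervals are limma's, from the spread between libraries. Transcript lengths and GC content are of the longest annotated transcript. The fit was tested on simulated data. Tables and plots were made with matplotlib 3.10.9, scipy 1.17.1, pandas 2.3.3 and numpy 2.4.6 in Python 3.11.15.

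The members and companion lists were chosen with earlier results of these data known. Values per library are given for the pathway's transcription factors, the 8 members with the smallest p in each direction, members whose groups do not overlap, and the 3 with the widest range; MX1 was added after its values were seen. From the other lists, genes with an unadjusted p under 0.05 are named. One gene of the signalling list and 1 marker are not reported here. The alternatives were other filters, centring, library weights, a constant prior variance, trends removed, each library left out, and, added after the data were seen, voom on the recovered reads.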

Additional observations from a re-analysis of the deposited data

Results flagged for a closer look

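Of 90 groups of 4 libraries examined, 5 held a library far from the other 3. Chance marks about 1 in 20 groups, a share close to that one. In 4 of the 5 that library was APRIL column 3, the shallowest. OAS3 had a log2 value of 0.16 there, from 0 reads, against 4.45 to 4.60 in the other APRIL libraries. HERC5 had 6.27, from 8 reads, against 7.32 to 7.39. CMPK2 had 4.86, from 2 reads, against 6.24 to 6.33. The mean deviation of the 33 tested members, OAS3, HERC5 and CMPK2 among them, was -0.24 there, against 0.04 to 0.06 in the other APRIL libraries. The remaining one was CMPK2 in Control column 1, at 5.77 from 11 reads, against 6.34 to 6.36 in the other Control libraries.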

How the results depend on the processing

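Over 16 alternatives, 673 of 695 values of the 44 genes examined (the 33 tested members and 11 named genes of the other lists) kept their direction and their side of limma's adjusted threshold. The other filters and the constant prior variance leave a gene's difference unchanged, so values under those alternatives could not turn. None of the 44 genes passed limma's adjusted threshold in any fit. The remaining 22 values turned direction, in 12 members. Leaving out APRIL column 3 put IFIT3 at -0.16, OAS3 at 0.25, DDX58 at -0.0175, HERC5 at 0.0937, CMPK2 at 0.0906 and UBE2L6 at 0.0158. With library quality weights they were IFIT3 at -0.37, MX2 at 0.0204, OAS3 at 0.14, SAMD9L at 0.00687, HERC5 at 0.15 and HERC6 at 0.245. Without APRIL column 3 and Control column 1 they were IFIT3 at -0.27, MX2 at 0.00593, OAS3 at 0.16, SAMD9L at 0.0647 and HERC5 at 0.33. With the length and GC trends removed they were IFI35 at -0.24, IFITM2 at -0.22 and DTX3L at 0.145, and without Control column 1 they were DTX3L at 0.0146 and HERC5 at 0.0599. The cause was not tested.

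The count of members at an unadjusted p under 0.05 was 7 as deposited (11.9% of all genes), 4 with the stricter filter (26 members tested; 12.1%), 3 with the trends removed (8.07%) and 3 without APRIL column 3 and Control column 1 (7.52%). Leaving out 1 library gave 3 (without Control column 1; 4.5%) to 11 (without APRIL column 2), and 4 without APRIL column 4 (5.94%). Without APRIL column 2, 2247 of all 11257 genes tested stood at an unadjusted p under 0.05, against 1344 as deposited. The rise to 11 members thus came with a rise over the whole table. Genes passing limma's adjusted threshold numbered 0 as deposited (1344 at an unadjusted p under 0.05) and 0 with voom (1183 unadjusted), and 4 with quality weights, none of them a member. Quality weights were 5.46 for APRIL column 1, the largest, 0.117 for APRIL column 3 and 0.316 for Control column 1. Values of the weighted fit thus lean on APRIL column 1. The median difference of the members was 0.0069 with those weights. It was -0.14 as deposited, -0.19 to -0.05 with 1 library left out (-0.05 without APRIL column 3), -0.06 with voom, -0.08 with the trends removed and -0.0059 without APRIL column 3 and Control column 1. No paired analysis was possible because the columns carry no replicate number. Depth limits XAF1, IFIT3, ISG15, MX1, OAS2, OAS3, IFITM3, DDX58, HERC6 and CMPK2, each under 40 reads in at least 5 of 8 libraries.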
